A study of Homo sapiens with 8 samples.

Results

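The genes described here are the actin cytoskeleton and its SRF program: the actins, the ARP2/3 complex, filament turnover factors, contractile and cross-linking proteins, adhesion adaptors, and the transcription factor SRF with its co-activators. They were chosen by symbol from a list of 54 names, 52 of which are among the 13036 genes of the deposited table, and MYL9 and FLNC were not analysed here. All 52 passed the filter on low values. The cells sequenced were LN229-TAZ(4SA), a line of LN229 human glioblastoma cells named for TAZ(4SA), a form of the Hippo pathway co-activator TAZ, which all groups share. Regular culture without AF and culture with AF at 1 µM in the absence of glucose (called treated here) were each sampled at 1 h and at 7 h, with 2 libraries per group. The labels give AF as an abbreviation without a full name, and the title of the series concerns thioredoxin reductase 1 inhibition and disulfidptosis. AF and glucose loss were applied together, so their separate effects cannot be told apart. The labels do not say whether the line is 1 clone or whether each library had its own culture. The spread behind the p-values is that between these libraries and may be technical.

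Actin filaments grow from monomers with the help of nucleators such as the ARP2/3 complex and formins, are shortened by cofilins, and are bundled and pulled on by cross-linkers and myosin. The amount of free monomer is linked to transcription: monomeric actin holds the co-activators MRTFA and MRTFB in the cytoplasm, and when monomers are used up these proteins enter the nucleus and act with SRF on actin genes and their partners, including SRF itself. SRF binds a sequence called the CArG box. In disulfidptosis, a form of death described in glucose-starved cells that import much cystine, disulfide bonds form in actin cytoskeleton proteins and the filament network collapses. The comparisons below concern RNA levels only.

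The 8 libraries held between 27731776 and 45811965 reads in listed genes, and every one of the 52 genes had at least 60 reads in each library. Levels are CPM, the reads of a gene scaled by library size, on the authors' scale between libraries. A CPM value is relative to the other RNA of its library, so less RNA of a gene per cell and more RNA of other genes cannot be told apart. It is not a plain share of the listed reads. The library size behind it was 0.838 and 0.846 times those reads in the treated 7 h libraries and 1.04 to 1.09 times in the others. Values of library A come before those of library B of the same group, an order with no meaning, and the libraries of a group differed by more than counting error (chi-square per degree of freedom 2.79 to 3.62). Differences are log2 treated minus regular unless stated, and a gene is said to rise or fall when its adjusted p over all 13028 tested genes was under 0.05. The glioblastoma and glial markers NES, VIM and CD44 were high in every group, while GFAP had group means of 0.487 to 1.14 CPM. The summed level of the 7 glial markers was lower in treated cells at each time, at 5434 to 5496 CPM (regular) against 4980 to 5065 (treated) at 1 h and 6257 to 6302 against 5694 to 5722 at 7 h. By gene the markers were split: at 1 h 2 rose and 2 fell (28.6% each, against 17.7% and 20.7% of all tested genes). At 7 h 3 rose and 3 fell (42.9% each, against 40.5% and 41.1%). SOX2 differed by 1.05 at 1 h and -2.58 at 7 h, and NES by -0.39 and -0.42. VIM fell at 7 h (-0.09), while GFAP, OLIG2 and S100B rose (1.12, 1.24 and 0.94). The VIM value depended on the scaling, at -0.40 after scaling by the summed reads of listed genes and -1.04 after quantile normalization. CD44 did not pass at 7 h on the authors' scale (-0.05) but was called lower on both others, and the GFAP, OLIG2 and S100B rises were called on all of them. Of 17 markers of immune, endothelial, epithelial, erythroid and mural cells 5 were in the table (CD68, VWF, RGS5, PDGFRB and ACTA2), summing to 37.4 to 40.8 CPM (regular, 1 h), 40.0 to 40.3 (treated, 1 h), 36.3 to 39 (regular, 7 h) and 58.3 to 58.9 (treated, 7 h). The glial sum differed with treatment at each time. The sum of the other markers overlapped between treated and regular libraries at 1 h and was higher in treated ones at 7 h. The part of either sum in the actin results was not tested.

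Most actin cytoskeleton genes were lower in treated cells at 1 h, and most were at 7 h. At 1 h, 40 of the 52 fell (76.9%, against 20.7% of all tested genes) and 1 rose (17.7% of all tested genes), with a median difference of -0.25 against 0.01 over all tested genes. Falls of at least 2-fold numbered 8 (2.03% of all tested genes): SRF, CNN1, CNN2, ZYX, VCL, PDLIM5, TPM4 and ACTG1. At 7 h, 30 of the 52 fell (57.7%, against 41.1%) and 13 rose (25%, against 40.5%), with a median of -0.26 against -0.01. At that time 7 of the 52 fell at least 2-fold, a share near the 11.5% of all tested genes: MRTFB, MRTFA, CD2AP, ACTB, ACTG1, TPM1 and MYH9. The 7 h balance depended on the scaling between libraries: 30 fell on the deposited scale, 42 after quantile normalization and 45 after scaling by the summed reads of listed genes (called scaling to the total here), with 13, 6 and 4 rises. The 30 falls were called on all 3 scales. At 1 h the count was 31 falls and 7 rises after scaling to the total and 30 and 7 after quantile normalization, and 29 of the 40 falls were called on all 3 scales. Rises were then called at 1 h on both other scales for MRTFA, ARPC1A, ARPC1B, PFN2 and CORO1B besides MRTFB, for PDLIM1 with the total only, and for MYH10 with quantile normalization only. The falls that were not called on all of them were small, between -0.09 and -0.20 on the deposited scale. Scaling to the total moved every difference by 0.07 at 1 h and by -0.32 at 7 h. The median over all tested genes at 7 h was then -0.32, against -0.02 after quantile normalization. Shares of all tested genes were not computed on the other scales. Counts on those scales, here and below, therefore cannot be judged against all tested genes.

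**Figure D1:**
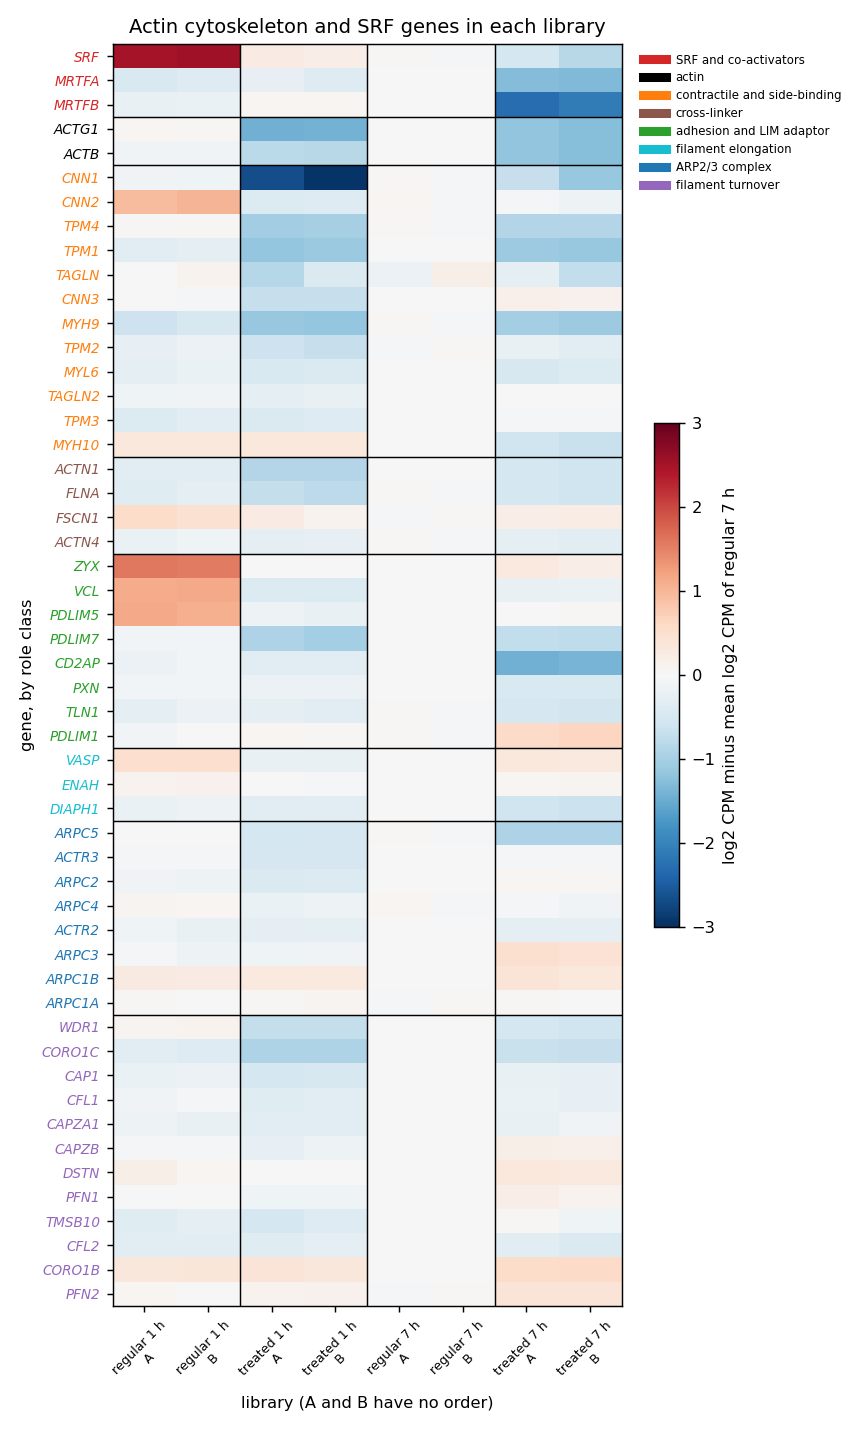
Heat map of the 52 genes (rows, by role class, label colours as in the key) in the 8 libraries (columns); colour is log2 CPM minus the gene's mean log2 CPM in regular culture at 7 h. SRF, ZYX, VCL, PDLIM5 and CNN2 stand out as high in both regular 1 h libraries, and MRTFB, CD2AP and MRTFA as low in both treated 7 h libraries.

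Together the 52 genes took 4.00% and 4.04% of the reads in listed genes in the regular 1 h libraries, against 2.80% and 2.79% in the treated ones. The share at 7 h was 4.32% and 4.28% in regular libraries, against 2.29% and 2.23% in treated ones. The treated libraries lay below the regular ones at each time. This share does not use the deposited scaling, but it is taken of the summed reads of listed genes, as in scaling to the total. That scale moved every 7 h difference by -0.32, so the 7 h share depends on the choice of scale too. ACTB and ACTG1 alone went from 1.49% and 1.48% to 0.767% and 0.759% at 1 h and from 1.54% and 1.54% to 0.540% and 0.513% at 7 h. Without these 2 genes the share was 2.51% and 2.56% against 2.03% and 2.03% at 1 h, and 2.78% and 2.74% against 1.75% and 1.72% at 7 h, so the remaining 50 genes were lower as a sum as well.

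**Figure D2:**
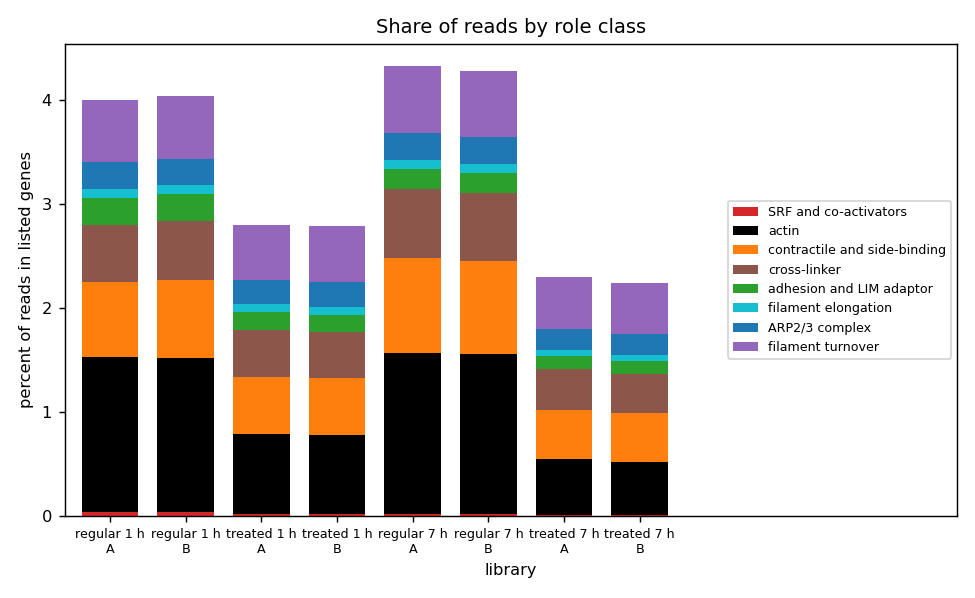
Stacked bars of the percent of reads in listed genes taken by each role class, 1 bar per library. The bars of treated cells end between 2.23% and 2.80%, below those of regular culture, which end between 4.00% and 4.32%.

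SRF, the transcription factor of the program, was high in the regular 1 h libraries and lower in the other 6. Its level was 211 and 218 CPM (regular, 1 h), 44.5 and 42.8 CPM (treated, 1 h), 38.1 and 36.8 CPM (regular, 7 h) and 26 and 21.1 CPM (treated, 7 h). It fell at 1 h by 2.30 on the log2 scale (SE 0.07; limma adjusted p = 5.12e-16), and the difference at 7 h was -0.68 (SE 0.07; limma adjusted p = 1.41e-08). In regular culture it changed by -2.51 from 1 h to 7 h, so treated cells at 1 h and regular culture at 7 h both lay far below regular culture at 1 h. The treated libraries lay below the regular ones at both times.

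The co-activators moved at the other time. MRTFA, whose product binds monomeric actin, stood at 45.4 and 47.8 CPM (regular, 1 h), 52 and 47.6 CPM (treated, 1 h), 62.7 and 61.6 CPM (regular, 7 h) and 25.4 and 24.8 CPM (treated, 7 h). At 1 h its difference was 0.09 (SE 0.05; limma adjusted p = 0.157), which did not pass the test on the deposited scale but was called higher by 0.16 after scaling to the total and by 0.14 after quantile normalization. By 7 h it had fallen, with a difference of -1.31 (SE 0.05; limma adjusted p = 7.6e-15). MRTFB, its close relative, had 53.8 and 54.1 CPM (regular, 1 h), 65 and 64.9 CPM (treated, 1 h), 63.5 and 61.7 CPM (regular, 7 h) and 12.9 and 14.6 CPM (treated, 7 h). It rose at 1 h by 0.27 (SE 0.05; limma adjusted p = 0.000658), the 1 rise among the 52, and at 7 h its difference was -2.18 (SE 0.05; limma adjusted p = 7.34e-18), the lowest of the 52. For both co-activators the treated 7 h libraries lay below all 6 others. The change between the 1 h and the 7 h difference was -1.40 (SE 0.07; limma adjusted p = 1.23e-12) for MRTFA and -2.45 (SE 0.08; limma adjusted p = 6.96e-16) for MRTFB, whereas for SRF it was 1.62 (SE 0.09; limma adjusted p = 8.34e-12). The ratio of MRTFA to MRTFB reads within a library was 0.845 and 0.883 (regular, 1 h), 0.800 and 0.733 (treated, 1 h), 0.988 and 0.999 (regular, 7 h) and 1.98 and 1.69 (treated, 7 h). SRF therefore differed most at 1 h and its co-activators at 7 h.

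**Figure D3:**
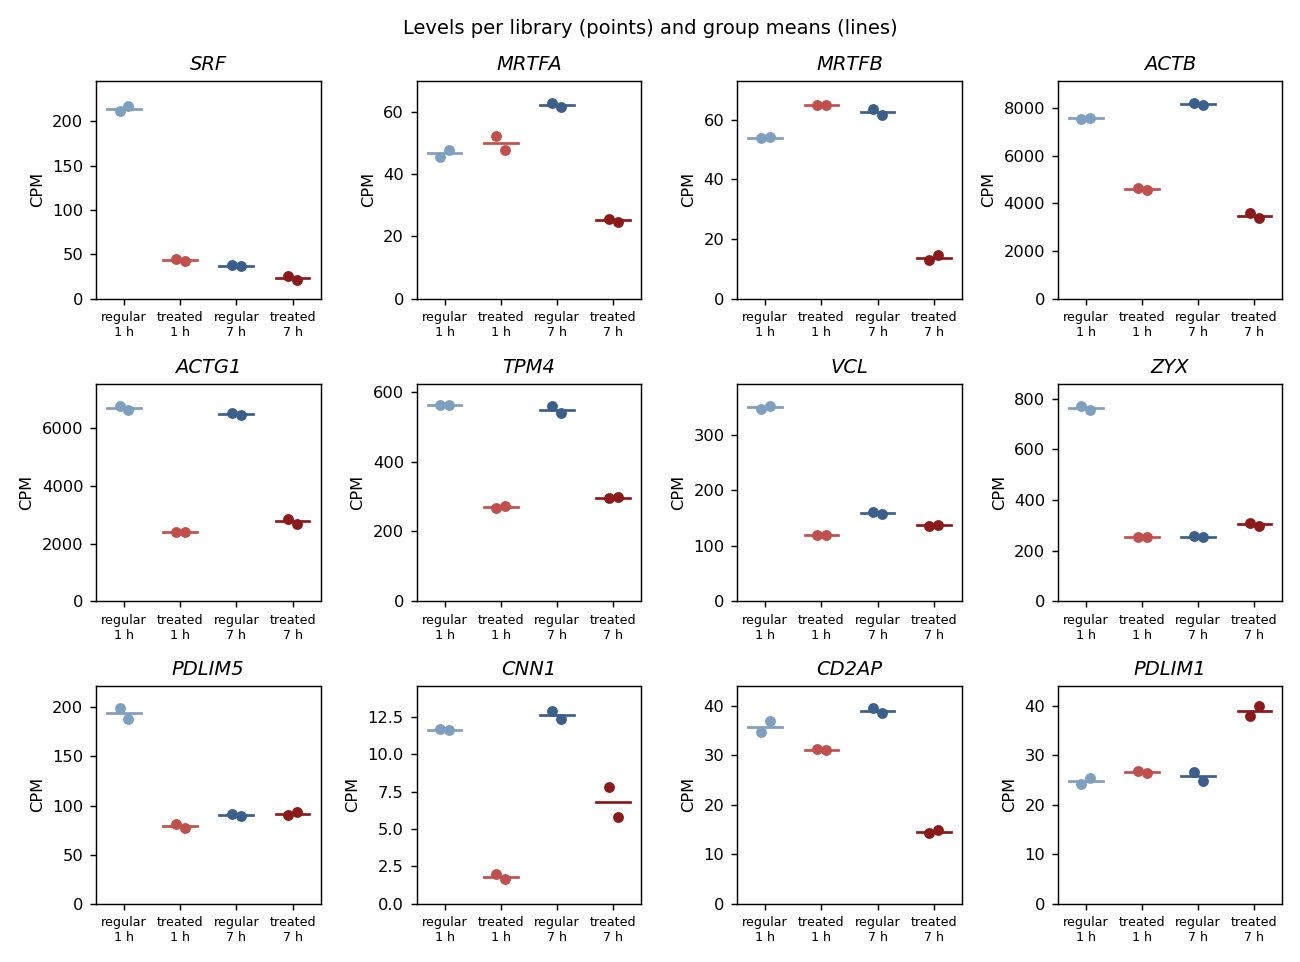
CPM per library (points) and group means (lines) for 12 of the genes in the 4 groups, each panel with its own axis from 0. SRF, VCL, ZYX and PDLIM5 are high in regular culture at 1 h only; ACTB, ACTG1 and TPM4 are high in both regular groups; MRTFA, MRTFB and CD2AP are low and PDLIM1 is high in treated cells at 7 h.

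CArG boxes near the start sites of these genes are shown because SRF binds this sequence. A CArG box is CC, then 6 bases that are each A or T, then GG, and it reads as a CArG box on both strands. Promoter windows of 300 bases, from 250 before to 50 after each start site, were taken from RefSeq (GRCh38.p14) and matched 47 of the 52 genes; ACTB, ARPC1B, FSCN1, PFN2 and TAGLN had no entry. At least 1 box was found in 6 of the 47 genes (12.8%), against 1.56% of the 10451 tested genes with a window and 1.29% of all 35116 windows. The genes are SRF, ACTG1, CNN2, TPM4, FLNA and ACTN1. The list was made as an actin and SRF program, so the higher share may come from that choice and is no separate result. Only exact matches inside the windows were sought, so boxes elsewhere or with a changed base were not counted. Each sequence runs 5′ to 3′ on the gene's strand with the box in capitals and 25 bases on either side, or 10 for ACTG1, ending before the start site.
SRF: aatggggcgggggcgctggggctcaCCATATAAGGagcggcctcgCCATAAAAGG
ACTG1: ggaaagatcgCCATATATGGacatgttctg
CNN2: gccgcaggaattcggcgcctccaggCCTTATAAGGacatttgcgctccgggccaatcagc
TPM4: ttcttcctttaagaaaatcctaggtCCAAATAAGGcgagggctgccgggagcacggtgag
FLNA: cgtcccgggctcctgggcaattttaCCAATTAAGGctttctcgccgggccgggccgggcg
ACTN1: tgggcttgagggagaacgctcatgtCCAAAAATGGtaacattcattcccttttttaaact

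The SRF stretch (chr6:43171214-43171268, plus strand) holds 2 boxes, which begin 30 and 10 bases before the start site, and no GENCODE v29 gene overlaps it. The CNN2 stretch (chr19:1026494-1026553, plus strand) also lies outside annotated genes, and its box begins 89 bases before the start. The ACTG1 stretch (chr17:81512874-81512903, minus strand) overlaps an exon of another ACTG1 transcript in GENCODE v29, with the box 94 bases before the RefSeq start. The FLNA stretch (chrX:154374694-154374753, minus strand; box 94 bases before the start) overlaps an exon of AC245140.3, annotated on the opposite strand. The TPM4 stretch (chr19:16067340-16067399, plus strand; box 173 bases before the start) and the ACTN1 stretch (chr14:68977703-68977762, minus strand; box 171 bases before the start) lie in introns of longer transcripts of these genes. At 1 h the 6 carriers had differences of -2.30 (SRF), -1.48 (ACTG1), -1.38 (CNN2), -1.05 (TPM4), -0.53 (ACTN1) and -0.43 (FLNA), all called lower, as were 40 of the 52 genes with or without a box. Their behaviour in regular culture from 1 h to 7 h differed: SRF and CNN2 changed by -2.51 and -0.98, FLNA and ACTN1 by 0.32 and 0.34, while ACTG1 (-0.04) and TPM4 (-0.04) did not pass the test. A match is a description of letters in the window, and SRF binding was not measured.

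Both cytoplasmic actin genes fell at both times. ACTB (chr7:5527148-5530601, GRCh38.p14), which encodes beta-actin, stood at 7551 and 7592 CPM (regular, 1 h), 4637 and 4556 CPM (treated, 1 h), 8204 and 8126 CPM (regular, 7 h) and 3575 and 3369 CPM (treated, 7 h). Its difference was -0.72 (SE 0.03; limma adjusted p = 4.38e-13) at 1 h and -1.23 (SE 0.03; limma adjusted p = 1.2e-17) at 7 h. ACTG1 (chr17:81509971-81512799), which encodes gamma-actin, stood at 6778 and 6646 CPM (regular, 1 h), 2393 and 2420.2 CPM (treated, 1 h), 6547 and 6476 CPM (regular, 7 h) and 2870.1 and 2692 CPM (treated, 7 h). It differed by -1.48 (SE 0.03; limma adjusted p = 6.27e-18) at 1 h and -1.23 (SE 0.03; limma adjusted p = 1.56e-17) at 7 h. For each gene all treated libraries lay below all regular libraries, and regular culture hardly moved between the times (0.11 and -0.04, of which the ACTB change passed the test), although after quantile normalization these values were called lower, at -0.09 and -0.19. The actins did not fall equally at 1 h: the ratio of ACTB to ACTG1 reads within a library was 1.11 and 1.14 (regular, 1 h), 1.94 and 1.88 (treated, 1 h), 1.25 and 1.25 (regular, 7 h) and 1.25 and 1.25 (treated, 7 h). That ratio does not depend on the scaling between libraries, and it was higher in the treated 1 h libraries than in the other 6. Both actins have many processed pseudogenes and similar coding sequences, so a share of their reads may be assigned to the wrong copy, and CFL1, TMSB10 and TPM3 have such copies too.

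Among the 12 measured contractile and filament-side genes, 10 fell at 1 h and none rose, and at 7 h 8 fell and 1 rose, CNN3, which turned to -0.14 after quantile normalization and -0.18 after scaling to the total. The falls were 83.3% of the class at 1 h and 66.7% at 7 h, against 20.7% and 41.1% of all tested genes. The rise at 7 h was 8.33% of the class, against 40.5% of all tested genes. CNN1, a smooth muscle calponin, had as few as 60 reads in a library and stood at 11.7 and 11.6 CPM (regular, 1 h), 1.99 and 1.63 CPM (treated, 1 h), 12.9 and 12.4 CPM (regular, 7 h) and 7.83 and 5.78 CPM (treated, 7 h). Its differences were -2.66 (SE 0.13; limma adjusted p = 2.49e-12) at 1 h, the lowest of the 52, and -0.91 (SE 0.13; limma adjusted p = 3.11e-06) at 7 h. Its relatives followed other courses. CNN2 stood at 239 and 253 CPM (regular, 1 h), 94 and 94.9 CPM (treated, 1 h), 129 and 119.7 CPM (regular, 7 h) and 122 and 113 CPM (treated, 7 h), with differences of -1.38 at 1 h and -0.09 (SE 0.04; limma adjusted p = 0.0785) at 7 h, the latter called lower after scaling to the total (-0.40) and quantile normalization (-0.17). CNN3 stood at 531 and 509 CPM (regular, 1 h), 324 and 325 CPM (treated, 1 h), 525 and 526 CPM (regular, 7 h) and 583 and 574 CPM (treated, 7 h), with -0.68 at 1 h and 0.14 at 7 h. The ratio of CNN2 to CNN3 reads within a library was 0.449 and 0.497 (regular, 1 h), 0.290 and 0.292 (treated, 1 h), 0.245 and 0.228 (regular, 7 h) and 0.209 and 0.196 (treated, 7 h).

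Tropomyosins, which coil along filaments and govern access of other proteins, also split by gene. TPM1 stood at 1126 and 1161 CPM (regular, 1 h), 638 and 659 CPM (treated, 1 h), 1427 and 1429.8 CPM (regular, 7 h) and 674 and 650.1 CPM (treated, 7 h), with differences of -0.82 (SE 0.03; limma adjusted p = 2.83e-14) and -1.11 (SE 0.03; limma adjusted p = 3.1e-17). TPM4 stood at 562 and 563 CPM (regular, 1 h), 268 and 273 CPM (treated, 1 h), 559 and 539 CPM (regular, 7 h) and 296 and 298 CPM (treated, 7 h), with -1.05 (SE 0.03; limma adjusted p = 3.74e-16) and -0.89 (SE 0.03; limma adjusted p = 8.11e-16). In each of these genes the treated libraries were all below the regular ones. TPM2 fell less (-0.45 and -0.28), and TPM3 passed at neither time (-0.06 and -0.06), although it was called lower at 7 h after scaling to the total (-0.37) and after quantile normalization (-0.40). Within a library, the ratio of TPM1 to TPM3 reads was 1.94 and 1.89 (regular, 1 h), 1.13 and 1.13 (treated, 1 h), 1.84 and 1.87 (regular, 7 h) and 0.911 and 0.879 (treated, 7 h). The ratio of TPM4 to TPM3 reads was 0.966 and 0.915 (regular, 1 h), 0.473 and 0.467 (treated, 1 h), 0.720 and 0.706 (regular, 7 h) and 0.400 and 0.402 (treated, 7 h), again lower in treated cells at each time.

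MYH9, the heavy chain of non-muscle myosin IIA, stood at 2192 and 2411 CPM (regular, 1 h), 1538 and 1507 CPM (treated, 1 h), 3479 and 3295 CPM (regular, 7 h) and 1666 and 1596 CPM (treated, 7 h), with differences of -0.59 (SE 0.04; limma adjusted p = 2.48e-10) and -1.05 (SE 0.04; limma adjusted p = 3.72e-15). MYH10, the heavy chain of myosin IIB, differed by -0.00 at 1 h, which did not pass, and fell to -0.64 at 7 h. The myosin light chain gene MYL6 fell at both times (-0.22 and -0.44). TAGLN, which encodes transgelin and had group means of 4.10 to 6.62 CPM, was called lower at both times (-0.70 and -0.51), a call lost at 1 h without treated library A and at 7 h on leaving out library B of regular culture or library B of treated cells. TAGLN2 fell by 0.14 at 1 h and stood at -0.01 at 7 h, which did not pass on the deposited scale but was called lower on both other scales.

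**Figure D4:**
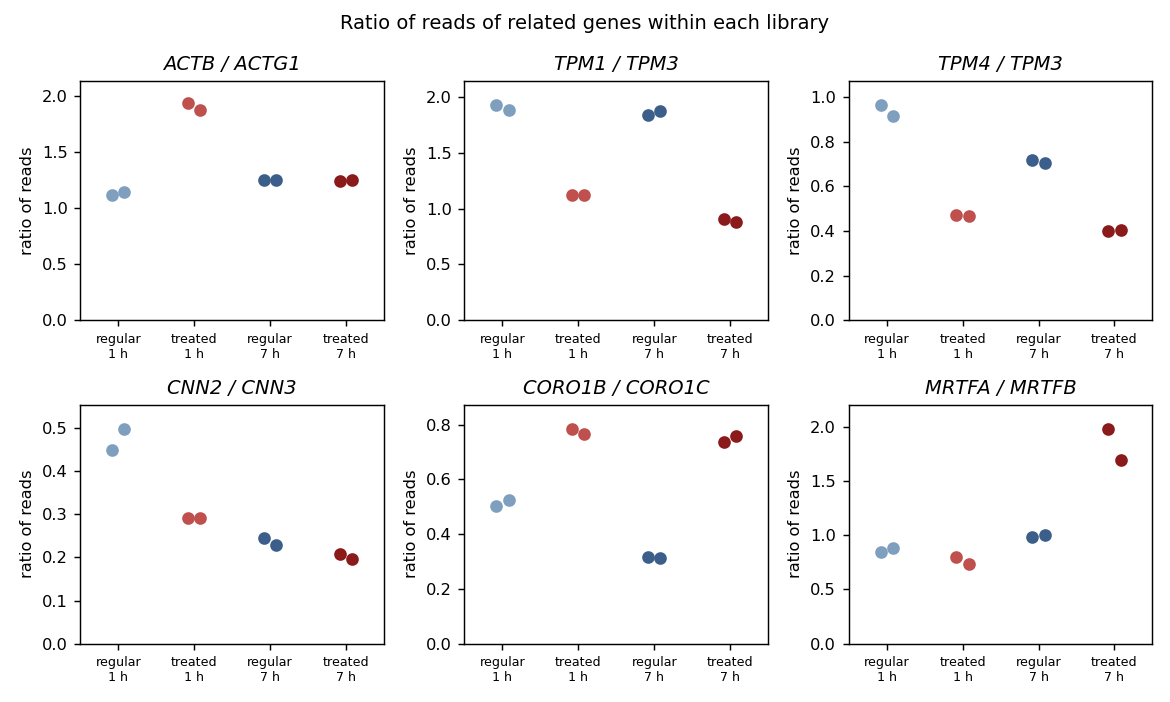
Ratio of reads of related genes within each library (points) in the 4 groups, each panel with its own axis from 0. ACTB to ACTG1 is raised in treated cells at 1 h only, TPM1 and TPM4 to TPM3 are lower and CORO1B to CORO1C higher in treated cells at each time, and MRTFA to MRTFB is raised in treated cells at 7 h.

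The 4 measured cross-linkers fell together at 1 h (100%, against 20.7% of all tested genes). At 7 h all but FSCN1 fell (75%, against 41.1%), and the FSCN1 rise was 25% of the class, against 40.5%. FLNA, which encodes the filament-crossing protein filamin A, stood at 3195 and 3346 CPM (regular, 1 h), 2481 and 2381 CPM (treated, 1 h), 4158 and 3997 CPM (regular, 7 h) and 2821 and 2702 CPM (treated, 7 h), with differences of -0.43 (SE 0.03; limma adjusted p = 4.42e-09) and -0.56 (SE 0.03; limma adjusted p = 8.72e-12). ACTN1, an alpha-actinin of stress fibres and adhesions, stood at 755 and 749 CPM (regular, 1 h), 520.4 and 521 CPM (treated, 1 h), 967 and 939.5 CPM (regular, 7 h) and 661 and 634 CPM (treated, 7 h), with -0.53 and -0.56. Its relative ACTN4 fell less, by 0.09 at 1 h and 0.31 at 7 h. The 1 h call of ACTN4 was lost without regular library B or either treated library, and on both other scales. FSCN1, the bundling protein fascin of filopodia, stood at 513 and 485 CPM (regular, 1 h), 419 and 379.8 CPM (treated, 1 h), 346 and 359 CPM (regular, 7 h) and 407 and 409 CPM (treated, 7 h). It differed by -0.32 at 1 h and 0.21 at 7 h on the deposited scale, and the 7 h value turned to -0.11 after scaling to the total and -0.03 after quantile normalization.

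Of the 8 adhesion and LIM adaptor genes, 6 fell at 1 h and none rose, and at 7 h 5 fell and 2 rose. The falls were 75% of the class at 1 h, against 20.7% of all tested genes, and 62.5% at 7 h, against 41.1%, where the rises were 25% against 40.5%. Like SRF, 3 of them were high in regular culture at 1 h alone. VCL, which encodes vinculin and links talin to actin, stood at 347 and 351 CPM (regular, 1 h), 120.0 and 119.9 CPM (treated, 1 h), 161 and 157 CPM (regular, 7 h) and 136 and 138 CPM (treated, 7 h). ZYX, which encodes the stress fibre protein zyxin, stood at 771 and 754 CPM (regular, 1 h), 254 and 253 CPM (treated, 1 h), 259 and 253 CPM (regular, 7 h) and 311 and 296 CPM (treated, 7 h). PDLIM5, a PDZ and LIM domain protein of actin structures, stood at 199 and 189 CPM (regular, 1 h), 81.4 and 77.1 CPM (treated, 1 h), 91.7 and 89.6 CPM (regular, 7 h) and 90.1 and 93.6 CPM (treated, 7 h). In all 3 the regular 1 h libraries lay above the other 6. The differences at 1 h were -1.54 (SE 0.03; limma adjusted p = 2.96e-18) for VCL, -1.59 (SE 0.03; limma adjusted p = 1.59e-18) for ZYX and -1.29 (SE 0.04; limma adjusted p = 1.75e-15) for PDLIM5. At 7 h they were -0.22, 0.25 and 0.02. VCL fell at that time on all 3 scales, the ZYX rise turned to -0.07 after scaling to the total and was not called after quantile normalization (0.02), and PDLIM5 did not pass on the deposited scale but was called lower after scaling to the total (-0.30).

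The other 5 adaptors followed separate courses. PDLIM7 fell at both times (-0.89 and -0.75). CD2AP, an adaptor between membrane receptors and actin, stood at 34.6 and 36.8 CPM (regular, 1 h), 31.2 and 31.1 CPM (treated, 1 h), 39.5 and 38.5 CPM (regular, 7 h) and 14.2 and 14.9 CPM (treated, 7 h), with a difference of -1.42 (SE 0.06; limma adjusted p = 8.28e-15) at 7 h. Its 1 h fall (-0.20) lost its call without regular library B and after scaling to the total (-0.13). TLN1, the integrin activator talin, and PXN, the scaffold paxillin, fell at 7 h (-0.53 and -0.45). At 1 h TLN1 did not pass (-0.06), and PXN was called lower by 0.10 on the deposited scale only, a call that needed both regular library B and treated library B. PDLIM1 stood at 24.2 and 25.3 CPM (regular, 1 h), 26.8 and 26.3 CPM (treated, 1 h), 26.5 and 24.9 CPM (regular, 7 h) and 38 and 39.9 CPM (treated, 7 h), and it rose at 7 h by 0.60 (SE 0.06; limma adjusted p = 7.68e-09), a call made on all 3 scales.

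All 3 filament elongation genes fell at 1 h (100%, against 20.7% of all tested genes). At 7 h 1 fell and 2 rose on the deposited scale (33.3% and 66.7%, against 41.1% and 40.5%). VASP, which adds monomers at growing ends, stood at 184 and 185 CPM (regular, 1 h), 111 and 111 CPM (treated, 1 h), 129 and 130.1 CPM (regular, 7 h) and 160.1 and 158 CPM (treated, 7 h), with -0.73 (SE 0.03; limma adjusted p = 5.45e-13) at 1 h. On the deposited scale it was higher at 7 h (0.30), and this turned to -0.02 after scaling to the total. Its relative ENAH had -0.16 and 0.07. The 1 h fall of ENAH was not called after quantile normalization (-0.07), its 7 h rise was lost without regular library A or either treated library, and the 7 h value turned to -0.25 and -0.16 on the other scales. DIAPH1, a formin, fell by 0.15 at 1 h, which was not called after quantile normalization (-0.07), and its difference at 7 h was -0.62 (SE 0.03; limma adjusted p = 6.07e-13).

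Subunits of the ARP2/3 complex, which nucleates branched filaments, followed several courses. At 1 h 5 of 8 fell and none rose, with a median of -0.19, and at 7 h 2 fell and 2 rose, with a median of -0.02. The falls at 1 h were 62.5% against 20.7% of all tested genes, and the 25% in each direction at 7 h lay below the 41.1% and 40.5% of all tested genes. ARPC5 stood at 349 and 345 CPM (regular, 1 h), 243 and 249 CPM (treated, 1 h), 357 and 345 CPM (regular, 7 h) and 186 and 184 CPM (treated, 7 h), with -0.49 (SE 0.03; limma adjusted p = 1.25e-10) and -0.92 (SE 0.03; limma adjusted p = 8e-16). ACTR3, one of the actin-related subunits, stood at 412 and 401 CPM (regular, 1 h), 295 and 299 CPM (treated, 1 h), 418 and 423 CPM (regular, 7 h) and 403 and 403 CPM (treated, 7 h), and it fell at 1 h (-0.45) but not at 7 h (-0.06), where it was called lower on the other 2 scales (-0.38 and -0.30). ACTR2 differed by -0.13 at 1 h, a call lost without regular library A and on both other scales, and fell at 7 h (-0.29). ARPC3 stood at 125 and 119 CPM (regular, 1 h), 119 and 122 CPM (treated, 1 h), 132 and 131 CPM (regular, 7 h) and 184 and 176 CPM (treated, 7 h) and rose at 7 h by 0.45 (SE 0.04; limma adjusted p = 8.9e-10) on all 3 scales. ARPC1B rose at 7 h (0.35) but was not called after scaling to the total (0.03). ARPC2 and ARPC4 fell at 1 h (-0.29 and -0.25) and did not pass at 7 h on the deposited scale, and ARPC1A passed at neither time. On both other scales these 3 subunits were called lower at 7 h.

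Turnover factors, which sever, cap or carry actin, moved less than 2-fold at both times. At 1 h 9 of 12 fell and none rose, with a median of -0.14, and at 7 h 6 fell and 5 rose, with a median of -0.11. The 1 h falls were 75% of the class, against 20.7% of all tested genes, while the 50% and 41.7% at 7 h were near the 41.1% and 40.5% of all tested genes. WDR1, a partner of cofilin in disassembly, stood at 554 and 562 CPM (regular, 1 h), 322 and 322 CPM (treated, 1 h), 532 and 519 CPM (regular, 7 h) and 364 and 345 CPM (treated, 7 h), with -0.79 (SE 0.03; limma adjusted p = 7.77e-14) and -0.57 (SE 0.03; limma adjusted p = 2.02e-12). CORO1C, a coronin, stood at 213 and 206 CPM (regular, 1 h), 142 and 141 CPM (treated, 1 h), 269 and 267 CPM (regular, 7 h) and 169 and 165 CPM (treated, 7 h), with -0.57 and -0.68. Its relative CORO1B moved the other way at 7 h, from 84.8 and 83.7 CPM in regular culture to 124 and 125 in treated cells. The difference was 0.56 (SE 0.04; limma adjusted p = 1.53e-11), a rise called on all 3 scales, and at 1 h it did not pass (0.02). The ratio of CORO1B to CORO1C reads within a library was 0.502 and 0.525 (regular, 1 h), 0.784 and 0.764 (treated, 1 h), 0.315 and 0.314 (regular, 7 h) and 0.738 and 0.757 (treated, 7 h). CAP1, which recycles monomers, fell at both times (-0.33 and -0.23), as did the cofilin CFL1 (-0.26 and -0.22) and the capping subunit CAPZA1 (-0.15 and -0.17). The 1 h call of CAPZA1 was lost without regular library A and on both other scales. CFL2, a cofilin of muscle, fell at 7 h (-0.38) and stood at 0.00 at 1 h.

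The remaining turnover factors depended on the scaling at one time or the other. The profilin PFN2 rose at 7 h (0.40) on all 3 scales. DSTN, PFN1 and CAPZB were called lower at 1 h on the deposited scale only (-0.13, -0.13 and -0.15). At 7 h they were called higher (0.31, 0.15 and 0.16), but after scaling to the total these values became -0.01, -0.17 and -0.16. The 1 h call of DSTN was lost without regular library A, that of CAPZB without treated library A. TMSB10, a thymosin that holds monomers, was called lower at 1 h (-0.12), on the deposited scale only, a call lost on leaving out library B of regular culture or library A of treated cells, and it did not pass at 7 h (-0.05), where it was called lower after scaling to the total (-0.36) and quantile normalization (-0.47).

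The comparisons at 1 h and 7 h share no library, but they use the same estimate of each gene's spread, so their calls are not independent. They are set side by side as a description. The share of all tested genes with each combination of calls was not computed, so the counts cannot be judged against it. The number of genes that fell at both times was 25, among them both actins, TPM1, TPM4, MYH9, FLNA, ACTN1, WDR1 and SRF. Another 8 fell at 1 h and rose at 7 h on the deposited scale (CAPZB, CNN3, DSTN, ENAH, FSCN1, PFN1, VASP and ZYX), and none of these 8 rises was called on all 3 scales. On the deposited scale MRTFB alone rose at 1 h and fell at 7 h. After scaling to the total and after quantile normalization MRTFA and ARPC1A were also called higher at 1 h and lower at 7 h. MYH10 was so after quantile normalization only. Genes that fell at 1 h and did not pass at 7 h numbered 7 (ACTR3, ARPC2, ARPC4, CNN2, PDLIM5, TAGLN2 and TMSB10). On the deposited scale another 4 fell only by the 7 h test (CFL2, MRTFA, MYH10 and TLN1) and 5 rose by it (ARPC1B, ARPC3, CORO1B, PDLIM1 and PFN2). ARPC1A and TPM3 passed neither on that scale. The change of the difference between the times passed its own test in 44 genes (84.6%, against 73.7% of all tested genes). It was upward in 27 (51.9% of the 52, against 36.7%) and downward in 17 (32.7%, against 37.0%). The split turned to 10 upward and 33 downward after scaling to the total and 13 and 29 after quantile normalization. On all 3 scales 10 of the upward changes were called (CNN1, CNN2, CNN3, CORO1B, FSCN1, PDLIM5, SRF, VASP, VCL and ZYX), and all 17 downward ones.

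**Figure D5:**
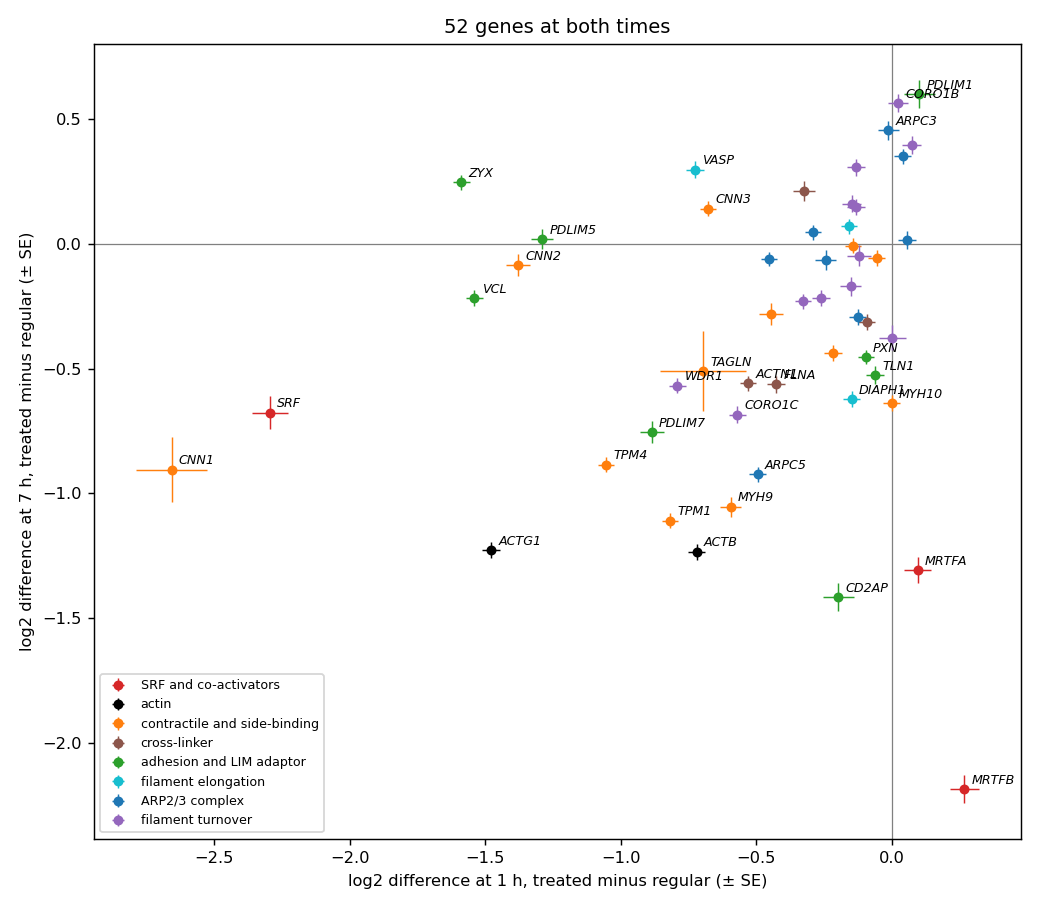
Log2 difference between treated and regular cells at 1 h (horizontal) and 7 h (vertical) for the 52 genes, with bars of 1 SE and colours by role class. SRF and CNN1 lie far left, MRTFB and MRTFA near 0 at 1 h and low at 7 h, the actins low on both axes, and ZYX, VCL, PDLIM5 and CNN2 low at 1 h and between -0.22 and 0.25 at 7 h.

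Regular culture itself changed between 1 h and 7 h, and treated cells are compared with it at each time. From 1 h to 7 h in regular culture 13 of the 52 genes fell (25%, against 30.8% of all tested genes) and 23 rose (44.2%, against 30.7%). The falls of at least 2-fold, 4 of the 52, were SRF (-2.51), ZYX (-1.58), VCL (-1.13) and PDLIM5 (-1.10), against 4.70% of all tested genes. CNN2 lay just short of 2-fold (-0.98). VASP (-0.51) and FSCN1 (-0.50) fell less. The largest rise in regular culture was that of MYH9 (0.56). For SRF, ZYX, VCL, PDLIM5 and CNN2 both regular 1 h libraries lay above all other libraries, and regular culture was lower by 7 h. No sample was taken before treatment. A rise in regular culture by 1 h and a fall in treated cells by 1 h therefore cannot be told apart. For ACTG1 (-0.04), TPM4 (-0.04), CNN1 (0.12) and PDLIM7 (0.08) no change in regular culture passed the test on the deposited scale (ACTG1 was called lower after quantile normalization), while each was lower in treated cells at both times. These comparisons share the regular libraries with those above, so they give levels and not a separate test. Within treated cells, 33 genes were higher at 7 h than at 1 h on the deposited scale (63.5%, against 36.9% of all tested genes) and 10 lower (19.2%, against 40.7%). The counts were 7 and 37 after scaling to the total and 12 and 27 after quantile normalization. Of the 33, 7 were called on all 3 scales, among them CNN1 (1.87) and CNN3 (0.83), whereas the 10 lower calls, among them MRTFB (-2.24), CD2AP (-1.09) and MRTFA (-0.99), were made on all 3.

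Genes around the same pathway were read from further lists. Of 18 measured SRF cofactors and muscle-type SRF targets, 14 fell and none rose at 1 h, with a median of -0.45, and at 7 h 11 fell and 6 rose, with a median of -0.36 (12 and 3 after scaling to the total). The falls were 77.8% at 1 h, against 20.7% of all tested genes, and at 7 h 61.1% fell and 33.3% rose, against 41.1% and 40.5%. ACTG2, an enteric smooth muscle actin, had the largest fall of this list at 1 h (-2.96), and it fell at 7 h as well (-1.79). FILIP1L fell by 2.05 at 1 h, TUFT1 and the SRF-interacting LIM protein gene FHL2 rose at 7 h (1.56 and 1.12) after falling at 1 h (-1.22 and -0.94), and NEXN, a filament-binding protein gene, fell at 7 h (-2.14). ACTA2, the vascular smooth muscle actin, did not pass at 1 h (0.02) and fell at 7 h (-0.46).

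In the formin and nucleation list of 18, 7 fell and 2 rose at 1 h and 7 fell and 6 rose at 7 h, against 4 and 6 at 1 h and 12 and 5 at 7 h after scaling to the total. The 38.9% lower and 33.3% higher at 7 h were near the 41.1% and 40.5% of all tested genes, and at 1 h 38.9% and 11.1% stood against 20.7% and 17.7%. JMY, a nucleator, rose at both times (0.81 and 2.76), as did COBL (0.25 and 0.72), and SPIRE1 rose at 7 h (0.97). The formin DAAM1 and the ARP2/3 activator WASL fell at 1 h (-0.77 and -0.40), though DAAM1 rose at 7 h (0.52), and the formins FMNL3 and FHOD3 at 7 h (-1.31 and -1.03). Among 18 other severing, capping and monomer-binding genes 5 fell and 3 rose at 1 h (3 and 6 after scaling to the total), and 4 fell and 8 rose at 7 h, where the balance turned to 12 falls and 5 rises after scaling to the total and 9 and 7 after quantile normalization. At 1 h the 27.8% lower and 16.7% higher were near the 20.7% and 17.7% of all tested genes, and at 7 h 22.2% and 44.4% stood against 41.1% and 40.5%. TMOD1 and SCIN rose at 7 h (1.26 and 0.87), and TMOD3 and ADD1 fell (-0.75 and -0.62). At 1 h ADD2 and CAPG rose (0.47 and 0.16), while CTTNBP2NL and EPS8 fell (-0.63 and -0.28), and EPS8 rose at 7 h (0.68).

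Of 18 further focal adhesion genes, 9 fell and 1 rose at 1 h, and 10 fell and 6 rose at 7 h, against 7 and 3 at 1 h and 14 and 3 at 7 h after scaling to the total. At 1 h 50% fell and 5.56% rose, against 20.7% and 17.7% of all tested genes, and at 7 h 55.6% and 33.3%, against 41.1% and 40.5%. FERMT2, the integrin activator kindlin-2, and AJUBA, a LIM protein, fell at 1 h (-1.83 and -1.36), and LIMD1 rose (0.55). At 7 h AJUBA (-1.28) and LIMD1 (-1.48) were lower. FERMT2 was called higher at 7 h (0.26), as it was after quantile normalization (0.29), but not after scaling to the total (-0.06). Like ZYX and VCL, FERMT2 was high in regular culture at 1 h and changed by -1.69 there by 7 h. At 7 h the tensin genes TNS3 and TNS1 fell (-1.68 and -1.66), while CSRP2 rose (0.64). Apart from FERMT2 at 7 h, every gene named in these 4 lists as rising or falling was called in the same direction on all 3 scales.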

How the data were processed

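RNA from 8 libraries of LN229-TAZ(4SA) cells was measured by sequencing, 2 libraries in each of 4 groups. The kits, per the labels' protocols, were SMART-Seq mRNA HT and Nextera XT. They do not mark strand, so a read in a gene with an overlapping or antisense partner may belong to either. Per the submitters' processing notes, HISAT2, edgeR and GRCh38 were used, with versions, counting tool and filter not given in the sources used here. Each value deposited is a log2 CPM with a small prior and a scaling between libraries already applied by the authors. The prior was 0.0522 CPM (2 reads in a library of mean size), and after its removal 100% of values came within 0.1 of a whole read count. Levels are CPM with the prior removed, and their precision is limited by the 27731776 to 45811965 reads per library and by the number of libraries. Columns name the group and not the replicate; 0 columns were left unassigned.

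The test kept 13028 of 13036 genes, those reaching 1 CPM in 2 or more libraries. It was limma 3.58.1 (R 4.3.3) on the log2 values, with a mean for each of the 4 groups and a trend of the spread with intensity (4 residual and 14.5 prior degrees of freedom), and p-values were adjusted by Benjamini-Hochberg over all tested genes. Differences keep the prior, so those of low genes are understated. Scaling, filter, pseudocount, weights, groups in the fit, a 1.5-fold threshold and leaving out each library were varied. The fit was tested on simulated reads. The members and lists were chosen with earlier results of these data known. Genes named with values are SRF, MRTFA, MRTFB, ACTB and ACTG1, the members with the largest changes in each role class, those that changed direction, and up to 2 rising and 2 falling genes of each other list at each time, with ACTA2 added as a marker gene; other members are given more briefly for a complete account. Some items of the other lists are not reported here. Promoter sequences and gene positions come from RefSeq (GRCh38.p14), and annotation from GENCODE v29 (GRCh38).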

Additional observations from a re-analysis of the deposited data

Results flagged for a closer look

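The difference between treated and regular cells was not the same at 1 h and 7 h in 44 of the 52 genes, by a limma test of the change itself, a share of 84.6% against 73.7% of all tested genes, so such a change was common in these data. Values of at least 1 log2 unit, and those of genes whose call changed direction, are given here as the 7 h difference minus the 1 h difference. Upward changes were 1.84 for ZYX, 1.75 for CNN1, 1.62 for SRF, 1.32 for VCL, 1.31 for PDLIM5, 1.29 for CNN2 and 1.03 for VASP, all called on all 3 scales. Downward changes were -2.45 for MRTFB, -1.40 for MRTFA and -1.22 for CD2AP, also called on all 3. Smaller upward changes in genes whose call turned on the deposited scale were 0.82 for CNN3 and 0.53 for FSCN1, both called on all 3 scales. Those of 0.44 for DSTN, 0.31 for CAPZB, 0.28 for PFN1 and 0.23 for ENAH were not. The turn of direction itself depended on the scale. None of the 7 h rises of these genes, or of ZYX and VASP, was called on all 3 scales.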

How the results depend on the processing

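No paired analysis was possible because the column headings of the deposited table give the group and not the replicate number. No filter on low values, adding 0.5 CPM before log2, weights on the recovered reads and a fit of only the groups compared left every count within 1.5 times its value. Leaving out each library in turn gave 36 to 40 falls and 1 rise at 1 h, and 29 to 32 falls and 12 to 13 rises at 7 h. It gave 40 to 43 genes whose difference changed between the times, 33 to 37 changed in regular culture and 42 to 44 in treated cells. Testing against a 1.5-fold change left 13 falls and 0 rises at 1 h (the 1 rise had an unadjusted p under 0.05 on the deposited scale), 12 falls and 0 rises at 7 h, 11 changes between the times, 5 in regular culture and 7 in treated cells. Rises at 1 h numbered 7 after quantile normalization and 7 after scaling to the total, and rises at 7 h numbered 6 and 4. Scaling to the total turned 7 h differences to -0.156 for CAPZB, -0.177 for CNN3, -0.0105 for DSTN, -0.246 for ENAH, -0.106 for FSCN1, -0.298 for PDLIM5, -0.170 for PFN1, -0.0195 for VASP and -0.0709 for ZYX. Quantile normalization turned CNN3 to -0.142, DSTN to -0.0897, ENAH to -0.160, FSCN1 to -0.0258 and PFN1 to -0.244. For these turns, the scaling itself shifts all genes at 7 h by -0.317, and the cause of the quantile values was not tested. Over the values of the named genes, 875 kept their call or stayed without one, 57 lost the call and 14 gained it. Another 14 turned with a call before or after the turn. Values that changed direction with no call either way are counted among the 875. With 2 libraries per group, small differences such as those of ACTN4 or TMSB10 depend on single libraries. The 52 genes had at least 60 reads in every library, and genes with few reads had larger errors, with an SE of 0.13 for CNN1 and 0.16 for TAGLN against 0.03 for ACTB.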
